A study of Homo sapiens with 16 samples.

Results

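RPMI8226 and KMS-11 are human cell lines derived from multiple myeloma, a cancer of antibody-secreting plasma cells. In both, a translocation that joins MAF to an immunoglobulin locus is known to drive high levels of this transcription factor. Transcript levels were compared to find genes whose change in hypoxia-resistant (HR) cells differed between these lines. The 8 arrays used, of 16 in the series, were the RPMI8226-HR, RPMI8226 parental, KMS-11-HR and KMS-11 parental arrays, with 2 arrays in each group. The other arrays belong to the lines U266 and IM-9. HR cells are resistant sublines kept at 1% oxygen for 24 hours, and parental cells were kept at 20% oxygen for 24 hours. How the sublines were derived, and whether they are clones, is not given in the sources used here. HR cells were measured only at low oxygen and parental cells only at high oxygen, so resistance and the oxygen level cannot be told apart, and "HR effect" below means HR minus parental cells of 1 line. Whether arrays of 1 group stand for independent cultures is not stated, so all p-values measure only the spread between arrays, which may be technical.

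Cells at low oxygen stabilise hypoxia-inducible factors (HIF), which turn on genes of glucose uptake, glycolysis, mitophagy and collagen hydroxylation. Cholesterol and fatty acid synthesis are governed by another set of factors, the sterol regulatory element-binding proteins (SREBP), which are released from the endoplasmic reticulum when membrane sterol is low. Several enzymes of cholesterol synthesis also need molecular oxygen. Plasma cells make large amounts of membrane and secreted protein, and myeloma cells depend on surface receptors and adhesion molecules of the marrow.

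The table holds log2 intensities that were already summarised per probe set, and every level and difference below is on that log2 scale. A level compares arrays for 1 gene and does not rank genes against each other. The medians of the arrays ran over 6.22 to 6.34, arrays of a group correlated across probe sets at r between 0.9951 and 0.9962, and 0 pairs of arrays were identical. The median standard deviation within a group was 0.0701 in RPMI8226-HR and 0.072 in parental RPMI8226, against 0.0479 in KMS-11-HR and 0.0473 in parental KMS-11. The number of arrays limits the precision. A gene was tested if it lay above 6.27, the median of all values, in at least 2 of the 8 arrays, which left 11907 of 18417 genes. MAF averaged 10.20 in RPMI8226-HR, 10.29 in parental RPMI8226, 10.23 in KMS-11-HR and 10.14 in parental KMS-11, against 8.44 and 6.26 in U266-HR and parental U266 and 5.94 and 5.93 in IM-9-HR and parental IM-9. Of 8 plasma cell markers, 7 lay above the filter in both RPMI8226 groups and 6 in both KMS-11 groups. CD38, a plasma cell surface enzyme, averaged 5.56 and 5.43 in KMS-11-HR and parental KMS-11, below the filter, and SLAMF7 was below it in all 8 arrays. The B cell marker MS4A1 (CD20) averaged 10.19 and 9.50 in the RPMI8226 groups and 5.02 and 5.03 in the KMS-11 groups. Of 5 B cell markers on the array, 5 lay above the filter in RPMI8226-HR, 4 in parental RPMI8226 and 2 in each KMS-11 group. Of 6 T and NK cell markers, 2 (CD7 and NKG7) lay above it in every group. Of 6 stromal markers, 2 lay above it in RPMI8226-HR and 1 in each other group. Of 5 myeloid markers, 0 lay above the filter.

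More genes passed in RPMI8226 than in KMS-11. In RPMI8226-HR, 1179 genes rose (9.9% of those tested) and 1732 fell (14.5%) at an adjusted p under 0.05. In KMS-11-HR, 258 rose (2.17%) and 563 fell (4.73%). In all, 24.4% of genes passed in RPMI8226 and 6.9% in KMS-11. This gap depended on the fit: with array weights, 853 genes rose and 1266 fell in RPMI8226, and 608 rose and 1233 fell in KMS-11. Without KMS-11-HR array 2, 85 rose and 84 fell in KMS-11. A change of at least 2-fold was reached by 111 risen and 133 fallen genes in RPMI8226 and by 20 and 6 in KMS-11. Across the 11907 genes the effects in RPMI8226 and KMS-11 correlated at Pearson r = 0.0976 and Spearman rho = 0.0851, a description over genes, which are not independent replicates.

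The difference itself, the RPMI8226 effect minus the KMS-11 effect, was tested for each gene with limma. It passed for 1921 genes (16.1%): it was higher in RPMI8226 for 941 (7.9%) and lower for 980 (8.23%). At least 2-fold differences numbered 135 and 146. A gene is called opposite below when the difference passed and both lines passed with different signs. It is called specific to 1 line when the difference passed, that line passed, and the other line did not pass and had a 95% interval within ±0.5. The opposite genes numbered 122 (1.02%), 80 of them higher in RPMI8226-HR and lower in KMS-11-HR (0.672%) and 42 the reverse (0.353%). The changes in RPMI8226 alone numbered 1231 (10.3%), 524 rises and 707 falls, and those in KMS-11 alone 217 (1.82%), 58 rises and 159 falls. Another 60 genes moved the same way by different sizes, 34 up and 26 down, and 43 of these moved further in RPMI8226.

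**Figure D1:**
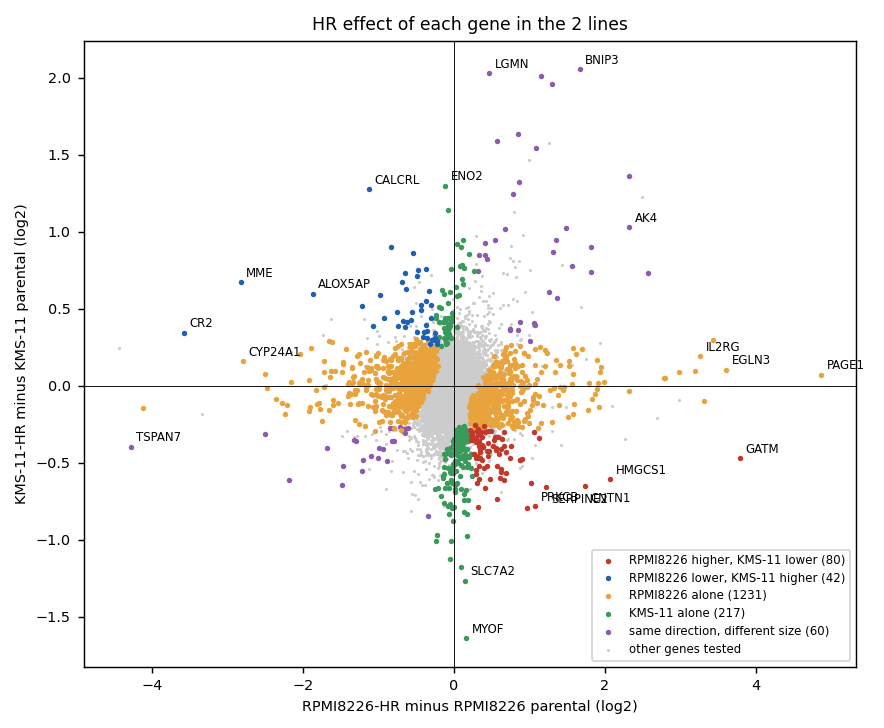
HR effect of each of 11907 genes in RPMI8226 (horizontal axis, log2) and KMS-11 (vertical axis, log2), one point per gene and coloured by class. Opposite genes fill the upper left (42) and lower right (80) of the plot, and the 1231 and 217 genes that changed in 1 line lie along the axes.

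Most opposite effects were small in one of the lines. Both effects reached 0.5 in 23 of the 122 opposite genes, and both reached 1 in 1 gene, CALCRL. The CALCRL rise in KMS-11 started from parental arrays below the filter, and against the filter level it was at least 1.11-fold. CRLF2, another opposite gene, passed the filter only through the groups where it was high, so it had to differ. The effect was larger in RPMI8226 in 68 of the 122 opposite genes. Most of these calls needed all 4 KMS-11 arrays: of the 122, 29 and 26 were still opposite without KMS-11 parental array 1 or 2, and 27 and 25 without KMS-11-HR array 1 or 2. Without one of the RPMI8226 arrays, 85 to 100 of the 122 were still opposite. Opposite calls held in all 8 of these fits for 12 genes, which include CALCRL, CRLF2, FRMD4B, PRKCB, SATB1, SQLE and ZMYND8.

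Cholesterol synthesis was the list with the most opposite genes. All 16 enzymes tested rose in RPMI8226-HR, whereas 7 fell and 0 rose in KMS-11-HR. The difference was higher in RPMI8226 for 15 of the 16 (93.8%) and lower for 0, with a median of 1.01 beside a median of 0.00 over all genes tested. The median HR effect of the list was 0.66 in RPMI8226 and −0.31 in KMS-11, and 7 members were opposite. These lists were chosen with earlier results of these data known, and an opposite turn of cholesterol synthesis in RPMI8226 was among those results. FDFT1 and HSD17B7 were not analysed here.

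HMGCS1, the synthase that feeds the mevalonate pathway, gave 11.64 and 11.81 in RPMI8226-HR, against 9.72 and 9.59 in parental RPMI8226, and 8.27 and 8.32 in KMS-11-HR, against 8.83 and 8.99 in parental KMS-11. The HR and parental arrays did not overlap in either line, as for 58.4% of all genes in RPMI8226 and 60% in KMS-11. HMGCS1 rose 4.2-fold in RPMI8226 (2.07 ± 0.09 log2, SE) and fell 1.53-fold in KMS-11 (−0.61 ± 0.09), a difference of 2.68 ± 0.13 (adjusted p = 1.96e-06). Its opposite call was lost in 1 of the 8 fits that left out an array, where the adjusted p in KMS-11 was 0.0506.

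SQLE, squalene epoxidase, which uses molecular oxygen, gave 11.62 and 11.72 in RPMI8226-HR, against 11.04 and 10.98 in parental RPMI8226, and 9.03 and 9.16 in KMS-11-HR, against 9.72 and 9.69 in parental KMS-11. SQLE rose by 0.66 ± 0.08 in RPMI8226 and fell by 0.62 ± 0.08 in KMS-11, and the difference was 1.28 ± 0.11 (adjusted p = 6.37e-05). CYP51A1, the sterol demethylase, another oxygen-using step, gave 11.16 and 11.37 in RPMI8226-HR, against 10.35 and 10.43 in parental RPMI8226, and 10.15 and 10.19 in KMS-11-HR, against 10.62 and 10.70 in parental KMS-11. The difference for CYP51A1 was 1.36 ± 0.12 (adjusted p = 7.55e-05), with a rise of 0.87 in RPMI8226 and a change of −0.48 in KMS-11 (adjusted p = 0.011). The other opposite enzymes were ACAT2 at the start of the pathway (0.41 and −0.66), FDPS, which makes farnesyl pyrophosphate (0.67 and −0.39), and EBP (0.41 and −0.30) and DHCR7 (0.32 and −0.47), which act late in it. In each pair the RPMI8226 effect comes first. With 1 array left out at a time, CYP51A1, FDPS and EBP were opposite in 4 of 8 fits, and ACAT2 and DHCR7 in 2 of 8, with adjusted p in RPMI8226 up to 0.189 for ACAT2 and 0.139 for DHCR7.

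The other 9 enzymes rose in RPMI8226 and did not pass in KMS-11. LSS, which closes the sterol rings, had the largest difference of these, 1.46 ± 0.15 (adjusted p = 0.000224), with effects of 1.07 in RPMI8226 and −0.39 in KMS-11 (adjusted p = 0.0604). MVD (0.72 and −0.14), MSMO1 (0.99 and −0.24), SC5D (0.94 and −0.22), NSDHL (0.57 and −0.25) and PMVK (0.44 and −0.15) changed in RPMI8226 alone. TM7SF2 was the member whose difference did not pass (0.47 ± 0.16, adjusted p = 0.0713); it passed without RPMI8226 parental array 1 (adjusted p = 0.037) or RPMI8226-HR array 1 (adjusted p = 0.035). Levels also differed between the lines: the median of RPMI8226 minus KMS-11 over the 16 enzymes was 1.38 for HR cells, with 15 higher in RPMI8226, and 0.638 for parental cells, with 11 higher.

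**Figure D2:**
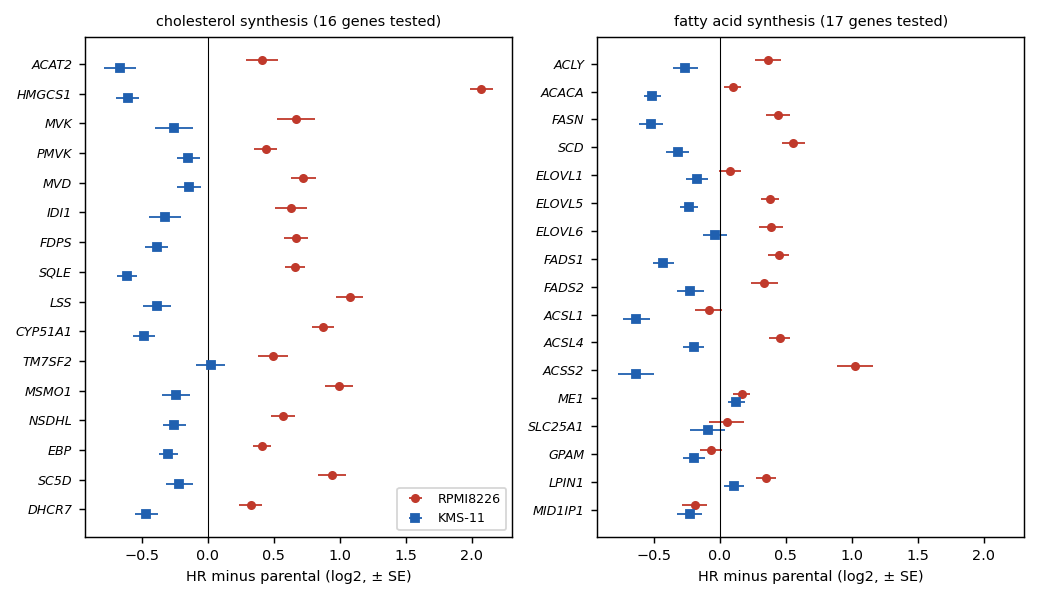
HR minus parental (log2, ± SE, 2 arrays per group) of the enzymes of cholesterol synthesis (left, 16 genes, in pathway order) and fatty acid synthesis (right, 17 genes) in RPMI8226 (circles) and KMS-11 (squares). All 16 cholesterol enzymes lie right of 0 in RPMI8226, and 15 lie left of it in KMS-11.

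Promoters of 3 opposite members are shown because the genes moved together, with every CCAAT box, read on either strand (CCAAT or ATTGG), in capitals. Each runs 5′ to 3′ on the gene's own strand, from RefSeq on GRCh38.p14: HMGCS1 at chr5:43313363-43313662, minus strand, CYP51A1 at chr7:92134428-92134727, minus strand, and FDPS at chr1:155308616-155308915, plus strand.
HMGCS1: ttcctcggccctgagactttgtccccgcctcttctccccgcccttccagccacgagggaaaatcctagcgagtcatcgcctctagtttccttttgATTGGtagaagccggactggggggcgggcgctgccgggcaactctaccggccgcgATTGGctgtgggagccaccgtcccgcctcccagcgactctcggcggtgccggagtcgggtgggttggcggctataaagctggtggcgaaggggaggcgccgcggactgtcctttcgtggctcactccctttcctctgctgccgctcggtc
CYP51A1: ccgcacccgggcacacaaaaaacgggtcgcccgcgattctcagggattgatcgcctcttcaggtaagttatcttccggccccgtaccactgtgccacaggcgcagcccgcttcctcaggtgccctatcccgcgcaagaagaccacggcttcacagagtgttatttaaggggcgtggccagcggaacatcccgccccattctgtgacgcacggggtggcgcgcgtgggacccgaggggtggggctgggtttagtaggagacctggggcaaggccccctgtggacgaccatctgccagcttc
FDPS: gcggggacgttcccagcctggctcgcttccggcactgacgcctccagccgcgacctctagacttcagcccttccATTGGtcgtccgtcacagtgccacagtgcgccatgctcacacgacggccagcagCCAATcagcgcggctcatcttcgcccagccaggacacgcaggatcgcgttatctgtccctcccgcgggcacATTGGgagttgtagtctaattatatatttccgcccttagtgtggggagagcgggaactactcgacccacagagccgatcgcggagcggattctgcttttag
HMGCS1 held 2 CCAAT boxes, FDPS 3 and CYP51A1 0. A CCAAT box stood in 11 of the 14 cholesterol promoters that had a sequence (78.6%), against 36.5% of the 9528 promoters of genes tested and 21 of the 56 promoters of all genes higher in RPMI8226-HR and lower in KMS-11-HR (37.5%). The sterol regulatory element spelled TCACNCCAC stood in 0 of the 14 and in 1.09% of all promoters, and its core CACNCCAC, which lies within it, in 1 of the 14 (7.14%) and in 5.72%. These matches describe letters in a window of 300 bases, not binding.

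Regulators of sterol supply divided the lines less evenly. Of 14 genes tested, 8 rose in RPMI8226 and 2 in KMS-11, where 3 fell. The difference was higher in RPMI8226 for 6 and lower for 0, with a median of 0.33. It passed for 42.9% of the list, against 16.1% of all genes tested. INSIG1, which holds the SREBP complex in the endoplasmic reticulum, was opposite, with effects of 0.91 in RPMI8226 and −0.47 in KMS-11 and a difference of 1.39 ± 0.11 (adjusted p = 4.7e-05). STARD4, a cholesterol carrier, was opposite as well (1.06 and −0.30, difference 1.36 ± 0.09, adjusted p = 2.26e-05). INSIG1 was opposite in 5 and STARD4 in 4 of the 8 fits without 1 array. MYLIP, a ligase that marks lipoprotein receptors for breakdown, gave 9.78 and 9.96 in RPMI8226-HR, against 8.02 and 8.16 in parental RPMI8226, and 7.83 and 7.79 in KMS-11-HR, against 7.96 and 7.97 in parental KMS-11. MYLIP rose by 1.78 ± 0.08 in RPMI8226 alone. The transcripts of the factors themselves did not pass in either line: SREBF1 had effects of −0.18 and −0.05 in RPMI8226 and KMS-11, and SREBF2 of 0.10 and −0.20. INSIG2 (0.44 and 0.46) and VLDLR (0.91 and 0.98), both also HIF targets, rose in both lines, and their differences of −0.02 ± 0.14 and −0.07 ± 0.10 did not pass.

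In fatty acid synthesis, of 17 genes tested, 10 rose and 0 fell in RPMI8226, and 0 rose and 5 fell in KMS-11. The difference was higher in RPMI8226 for 11 (median 0.56), 64.7% of the list, against 16.1% of all genes tested in either direction. ACSS2, which makes acetyl-CoA from acetate, gave 9.70 and 10.14 in RPMI8226-HR, against 8.94 and 8.86 in parental RPMI8226, and 6.86 and 7.15 in KMS-11-HR, against 7.63 and 7.65 in parental KMS-11. Its effects of 1.02 and −0.63 were opposite, as were those of FASN, the fatty acid synthase (0.44 and −0.52), and FADS1, a desaturase (0.45 and −0.43), and each of the 3 was opposite in 4 of the 8 fits without 1 array. ACACA, the carboxylase that commits acetyl-CoA to fatty acids (0.10 and −0.51), and ACSL1 (−0.08 and −0.63) fell in KMS-11 alone; the ACSL1 difference lost its call in 5 of the 8 fits without 1 array (adjusted p up to 0.103). The stearoyl desaturase SCD rose in RPMI8226 and did not pass in KMS-11 (0.56 and −0.32, difference 0.88 ± 0.12, adjusted p = 0.00136). The 3 lipid lists together held 12 of the 80 genes higher in RPMI8226-HR and lower in KMS-11-HR (15%), 0 of the 42 reverse ones, and 0.395% of all genes tested. As a description without a test, the median HR effect of the cholesterol list was −0.44 in U266 and −1.46 in IM-9.

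Other genes rose in RPMI8226-HR and fell in KMS-11-HR. GATM is the enzyme that makes the precursor of creatine from arginine and glycine. GATM gave 9.41 and 9.39 in RPMI8226-HR, against 5.61 and 5.62 in parental RPMI8226, and 7.03 and 6.91 in KMS-11-HR, against 7.42 and 7.47 in parental KMS-11. Parental RPMI8226 lay below the filter and RPMI8226-HR above every KMS-11 array. GATM was at least 8.77-fold higher in RPMI8226-HR and fell 1.39-fold in KMS-11 (fitted difference 4.26 ± 0.10, adjusted p = 1.7e-08). Here and below, where both arrays of the dimmer group lay below the filter, the fold is a lower bound taken against the filter level, and the fitted difference rests on those dim values. A gene that passed the filter only through the group where it was high had to differ.

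CNTN1, a neural adhesion protein, gave 5.80 and 5.77 in RPMI8226-HR, against 4.16 and 3.93 in parental RPMI8226, and 6.67 and 6.36 in KMS-11-HR, against 7.02 and 7.31 in parental KMS-11. All 4 RPMI8226 arrays were below the filter. The CNTN1 difference was 2.40 ± 0.18 (adjusted p = 3.83e-05). PRKCB, a protein kinase C that acts in B cell receptor signalling, gave 7.36 and 7.44 in RPMI8226-HR, against 6.28 and 6.36 in parental RPMI8226, and 6.47 and 6.38 in KMS-11-HR, against 7.33 and 7.08 in parental KMS-11. The PRKCB levels thus crossed: parental KMS-11 lay near RPMI8226-HR, and KMS-11-HR near parental RPMI8226. PRKCB rose 2.12-fold in RPMI8226 and fell 1.72-fold in KMS-11 (difference 1.86 ± 0.13, adjusted p = 2.26e-05).

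SERPINE2, a secreted protease inhibitor, gave 7.34 and 7.01 in RPMI8226-HR, against 6.02 and 5.89 in parental RPMI8226, and 6.44 and 6.49 in KMS-11-HR, against 7.16 and 7.09 in parental KMS-11. The growth factor gene FGF2 gave 6.41 and 6.24 in RPMI8226-HR, against 5.78 and 5.65 in parental RPMI8226, and 7.36 and 7.66 in KMS-11-HR, against 8.06 and 8.15 in parental KMS-11. Differences were 1.89 ± 0.15 for SERPINE2 (adjusted p = 4.51e-05) and 1.21 ± 0.15 for FGF2 (adjusted p = 0.000828). FGF2 stayed higher in every KMS-11 array than in any RPMI8226 array, whereas SERPINE2 did not. DPY19L2P1, a pseudogene that may share signal with its parent family, differed by 1.76 ± 0.28 (adjusted p = 0.00271), and its RPMI8226 arrays were all below the filter. Opposite members of other lists were the glycogen phosphorylase PYGL (0.70 in RPMI8226 and −0.57 in KMS-11), the mitochondrial folate enzyme ALDH1L2 (1.13 and −0.34), the plasma cell factor IRF4 (0.36 and −0.30), the ETS factor ETV4 (0.31 and −0.63), fibronectin, FN1 (0.40 and −0.26), the interleukin receptor chain IL10RA (0.30 and −0.37) and the integrin ITGAL (0.31 and −0.35). Without 1 array, GATM and CNTN1 were opposite in 6 of 8 fits, SERPINE2 and FGF2 in 5, DPY19L2P1, PYGL, ALDH1L2, IRF4 and FN1 in 4, ETV4 in 3, ITGAL in 2 and IL10RA in 1, with adjusted p in KMS-11 up to 0.199 for IL10RA and 0.215 for ITGAL.

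**Figure D3:**
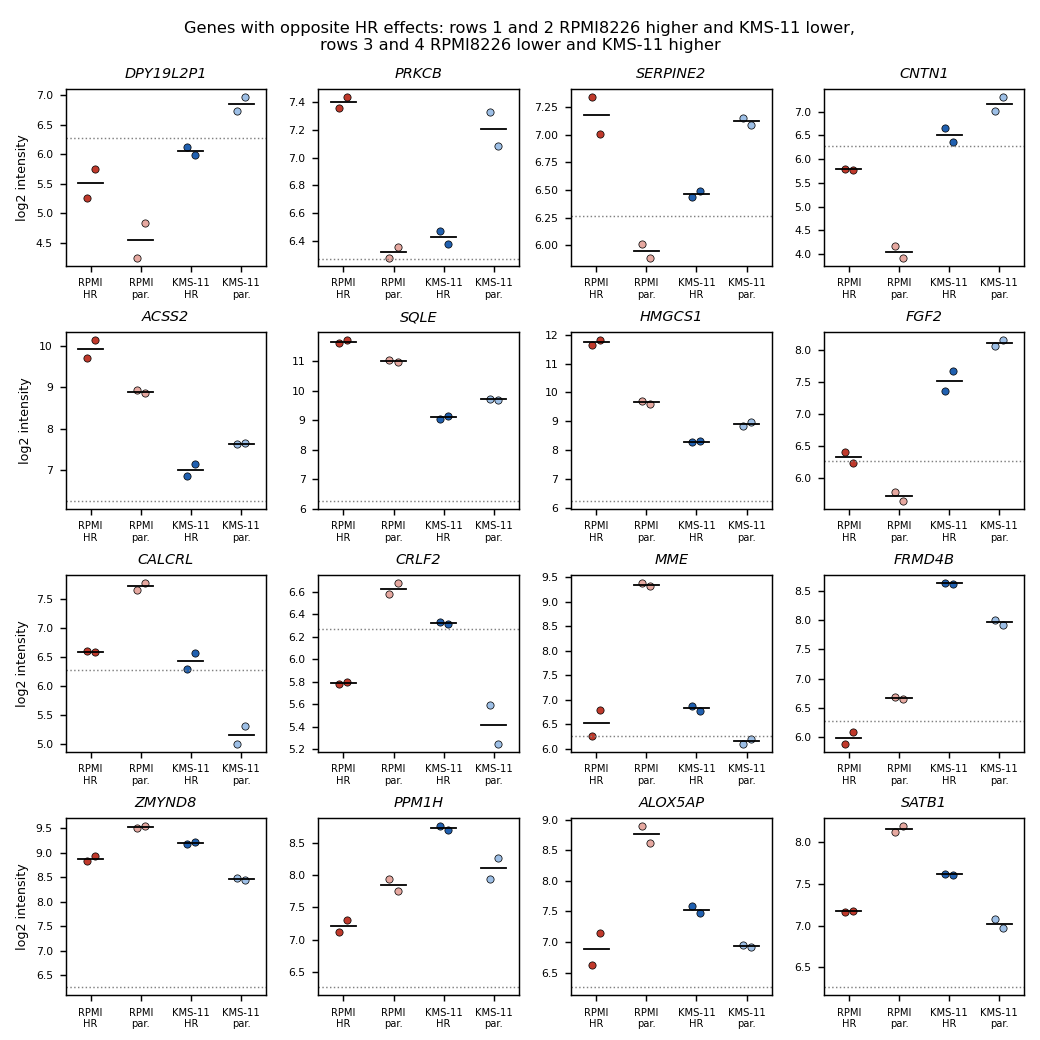
Log2 intensity of 16 opposite genes in each array (points) with the mean of the 2 arrays of a group (bars); the dotted line is the filter at 6.27, and each panel has its own vertical scale. HR arrays lie above parental arrays in RPMI8226 and below them in KMS-11 in the upper 2 rows, and the reverse in the lower 2 rows.

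The reverse pattern, lower in RPMI8226-HR and higher in KMS-11-HR, included surface proteins of the B lineage, such as MME and CR2, and other receptors. CALCRL, the receptor of adrenomedullin and related peptides, gave 6.60 and 6.59 in RPMI8226-HR, against 7.66 and 7.78 in parental RPMI8226, and 6.28 and 6.57 in KMS-11-HR, against 5.00 and 5.30 in parental KMS-11. It fell 2.18-fold in RPMI8226 and was at least 1.11-fold higher in KMS-11-HR (fitted difference −2.40 ± 0.17, adjusted p = 2.26e-05). The HR arrays of the lines lay closer together than the parental arrays. ADM, which encodes adrenomedullin, rose in both lines (0.86 in RPMI8226 and 0.81 in KMS-11).

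MME, the peptidase CD10 found on early and germinal-centre B cells, gave 6.25 and 6.79 in RPMI8226-HR, against 9.38 and 9.31 in parental RPMI8226, and 6.87 and 6.77 in KMS-11-HR, against 6.10 and 6.20 in parental KMS-11. MME fell 7.07-fold in RPMI8226 and was at least 1.47-fold higher in KMS-11-HR (fitted difference −3.49 ± 0.20, adjusted p = 8.47e-06). CR2, the complement receptor CD21, gave 4.70 and 4.66 in RPMI8226-HR, against 8.17 and 8.36 in parental RPMI8226, and 9.48 and 9.50 in KMS-11-HR, against 9.15 and 9.15 in parental KMS-11. CR2 lay below the filter in RPMI8226-HR, at least 3.99-fold lower, and its rise in KMS-11 was 0.34 (adjusted p = 0.0318; difference −3.92 ± 0.11, adjusted p = 5.29e-08). CRLF2, a chain of the receptor for thymic stromal lymphopoietin, gave 5.78 and 5.80 in RPMI8226-HR, against 6.58 and 6.68 in parental RPMI8226, and 6.33 and 6.31 in KMS-11-HR, against 5.59 and 5.25 in parental KMS-11. Its fitted difference was −1.74 ± 0.15 (adjusted p = 6.51e-05), across levels close to the filter. CRLF2 was above the filter only in parental RPMI8226 and KMS-11-HR, the group of each line where it was high, so it had to differ.

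SATB1, a chromatin organiser, gave 7.17 and 7.18 in RPMI8226-HR, against 8.12 and 8.19 in parental RPMI8226, and 7.62 and 7.60 in KMS-11-HR, against 7.07 and 6.97 in parental KMS-11. ZMYND8, a reader of histone marks, gave 8.82 and 8.93 in RPMI8226-HR, against 9.50 and 9.54 in parental RPMI8226, and 9.18 and 9.21 in KMS-11-HR, against 8.49 and 8.45 in parental KMS-11. Differences were −1.57 ± 0.10 for SATB1 (adjusted p = 1.22e-05) and −1.38 ± 0.10 for ZMYND8 (adjusted p = 2.6e-05). For both genes parental RPMI8226 was the highest group and parental KMS-11 the lowest. ALOX5AP, the partner of the lipoxygenase that starts leukotriene synthesis, had effects of −1.87 and 0.60 (difference −2.47 ± 0.21, adjusted p = 7.32e-05), FRMD4B of −0.68 and 0.67 (−1.35 ± 0.11, adjusted p = 6.59e-05), and the phosphatase PPM1H of −0.64 and 0.62 (−1.26 ± 0.16, adjusted p = 0.000895). Opposite members of other lists were the B cell repressor BACH2 (−0.56 and 0.48), the MAP kinase phosphatases DUSP4 (−0.40 and 0.35) and DUSP5 (−0.75 and 0.48), the sulfiredoxin SRXN1 (−0.74 and 0.39) and the lysosomal protease CTSD (−0.25 and 0.30). Without 1 array, PPM1H, BACH2 and DUSP5 were opposite in 5 of 8 fits, MME, CR2, ALOX5AP and SRXN1 in 4, CTSD in 2 and DUSP4 in 1, with adjusted p in KMS-11 up to 0.192 for CTSD and 0.257 for DUSP4.

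Genes that changed in RPMI8226 alone had a median rise of 0.50 and a median fall of −0.54, and 61 rises and 95 falls reached 2-fold. Some were not expressed above the filter in the other line: 79 of the 524 risen genes (15.1%) and 134 of the 707 fallen genes (19%) lay below it in all 4 KMS-11 arrays, against 8.91% of all genes tested. For such genes a change in KMS-11 may not have been measurable. With a KMS-11 or RPMI8226 array left out, 274 to 477 rises and 379 to 686 falls were found, the fewest rises without KMS-11 parental array 2 and the fewest falls without KMS-11-HR array 2.

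PAGE1, a cancer-testis antigen of the X chromosome with near-identical relatives, gave 9.97 and 10.06 in RPMI8226-HR, against 5.07 and 5.22 in parental RPMI8226, and 4.41 and 4.37 in KMS-11-HR, against 4.36 and 4.28 in parental KMS-11. PAGE1 was below the filter in the other 6 arrays and was at least 13.4-fold higher in RPMI8226-HR (fitted difference 4.80 ± 0.11, adjusted p = 1.7e-08). EGLN3, an oxygen-sensing prolyl hydroxylase and HIF target, gave 9.95 and 10.25 in RPMI8226-HR, against 6.42 and 6.55 in parental RPMI8226, and 6.08 and 5.90 in KMS-11-HR, against 5.98 and 5.80 in parental KMS-11. EGLN3 rose 12.2-fold in RPMI8226 and was below the filter in all 4 KMS-11 arrays, with a difference of 3.51 ± 0.16 (adjusted p = 1.87e-06). Its relative EGLN1 rose by 0.81 in RPMI8226 and 0.77 in KMS-11.

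IL2RG, the common chain of several interleukin receptors, gave 9.43 and 9.62 in RPMI8226-HR, against 6.23 and 6.29 in parental RPMI8226, and 12.20 and 12.28 in KMS-11-HR, against 12.03 and 12.07 in parental KMS-11. CD48, an immune cell adhesion protein, gave 9.43 and 9.62 in RPMI8226-HR, against 6.36 and 6.29 in parental RPMI8226, and 8.71 and 8.80 in KMS-11-HR, against 8.68 and 8.64 in parental KMS-11. Both genes were high in KMS-11 whatever the group. IL2RG rose 9.62-fold in RPMI8226 (difference 3.07 ± 0.12) and CD48 9.17-fold (3.10 ± 0.12), both with adjusted p = 4.92e-07. IGFBP2, a binding protein of insulin-like growth factors, rose 9.93-fold in RPMI8226 (difference 3.41 ± 0.24, adjusted p = 2.26e-05). CAPN6, a calpain, rose by 3.44 ± 0.09 in RPMI8226, and its KMS-11 effect of 0.29 (95% interval 0.10 to 0.49) missed the threshold with adjusted p = 0.0785.

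More surface and cytokine receptors passed in RPMI8226 than in KMS-11, as did more of all genes tested (24.4% against 6.9%). Of 34 receptors tested, 14 rose and 6 fell in RPMI8226, and 1 rose and 2 fell in KMS-11. The difference was higher in RPMI8226 for 12 and lower for 4 (47.1% of the list, against 16.1% of all genes tested). Risen members were the integrin ITGA4, which binds marrow stroma (1.87 in RPMI8226 and −0.05 in KMS-11), the interleukin receptor IL21R (1.59 and −0.12), the myeloma antigen GPRC5D (1.95 and 0.12), CD38 (1.52 and 0.13) and ICAM1 (0.82 and 0.15). NCAM1, or CD56, fell in RPMI8226 (−1.49 and 0.09), and so did TNFRSF17, or BCMA (−0.51 and 0.02), whose difference lost its call in 7 of the 8 fits without 1 array (adjusted p up to 0.123). ITGA4 was 8.08 and 8.06 in RPMI8226-HR, against 6.17 and 6.22 in parental RPMI8226, and between 9.14 and 9.26 in the 4 KMS-11 arrays. Like IL2RG, it was higher in all KMS-11 arrays than in RPMI8226-HR.

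Among the falls in RPMI8226 alone, SNORD113-4, a small nucleolar RNA of an imprinted cluster on chromosome 14 with closely related copies, gave 3.06 and 3.38 in RPMI8226-HR, against 7.26 and 7.41 in parental RPMI8226, and between 2.97 and 3.19 in the 4 KMS-11 arrays. CYP24A1, which breaks down vitamin D, gave 4.48 and 4.44 in RPMI8226-HR, against 7.13 and 7.37 in parental RPMI8226, and between 4.07 and 4.28 in KMS-11. Each was above the filter in parental RPMI8226 only. SNORD113-4 was at least 2.1-fold lower in RPMI8226-HR (fitted difference −3.97 ± 0.15, adjusted p = 4.92e-07) and CYP24A1 at least 1.98-fold lower (−2.95 ± 0.12, adjusted p = 8.05e-07). KDELR3, which returns proteins to the endoplasmic reticulum, differed by −2.58 ± 0.12 (adjusted p = 2.42e-06) and was below the filter in KMS-11. SEPTIN10, a cytoskeletal septin (−2.45 ± 0.20, adjusted p = 5.56e-05), and PCTP, a phosphatidylcholine carrier (−2.16 ± 0.15, adjusted p = 2.54e-05), were above the filter in all KMS-11 arrays, at 7.44 to 7.58 for SEPTIN10 and 7.19 to 7.37 for PCTP. CRIP2 fell with a difference of −2.27 ± 0.13 (adjusted p = 7.36e-06). The tetraspanin TSPAN7 fell in both lines, at least 9.96-fold in RPMI8226 and 1.32-fold in KMS-11 (difference −3.89 ± 0.10, adjusted p = 2.88e-08).

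B cell genes fell mostly in RPMI8226. Of 11 tested, 2 rose and 6 fell in RPMI8226, 3 rose and 0 fell in KMS-11, and 3 were opposite (CR2, MME and BACH2). The difference passed for 72.7% of the list, against 16.1% of all genes tested. The Fc receptor FCER2, or CD23, gave 7.94 and 8.07 in RPMI8226-HR, against 9.38 and 9.25 in parental RPMI8226, and was below the filter in KMS-11 (difference −1.08 ± 0.13, adjusted p = 0.000645). The kinase BLK (−0.47 in RPMI8226 and 0.02 in KMS-11) and FCRLA (−0.94 and −0.17) fell in RPMI8226 alone. MS4A1 (0.69 and −0.02) and the kinase BTK (0.57 and 0.15) rose there. The difference calls of BLK, MS4A1 and BTK were lost when an array of either line was left out, with adjusted p up to 0.158, 0.117 and 0.114. The list's median difference was −0.49, and it was −0.07 when genes below the filter were included.

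Genes that changed in KMS-11 alone had a median rise of 0.43 and a median fall of −0.44, and 2 rises and 6 falls reached 2-fold. Of the 58 risen genes 12 (20.7%), and of the 159 fallen genes 38 (23.9%), lay below the filter in all 4 RPMI8226 arrays, against 4.93% of all genes tested. Counts depended on the array left out, from 18 to 62 rises and 37 to 152 falls, with the fewest of both without KMS-11-HR array 2.

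ENO2, the neuronal enolase of glycolysis, gave 8.86 and 8.64 in RPMI8226-HR, against 8.89 and 8.84 in parental RPMI8226, and 7.99 and 7.87 in KMS-11-HR, against 6.64 and 6.61 in parental KMS-11. ENO2 rose 2.46-fold in KMS-11 to levels still below every RPMI8226 array (difference −1.41 ± 0.12, adjusted p = 7.07e-05). PLOD2, a collagen lysyl hydroxylase, gave 3.68 and 3.48 in RPMI8226-HR, against 3.35 and 3.57 in parental RPMI8226, and 8.98 and 9.04 in KMS-11-HR, against 8.11 and 8.01 in parental KMS-11. PLOD2 was thus below the filter in RPMI8226 and rose by 0.94 ± 0.10 in KMS-11 (difference −0.82 ± 0.14, adjusted p = 0.00352). The transcription factors MSC and MXI1 differed by −0.88 ± 0.16 (adjusted p = 0.00506) and −0.79 ± 0.13 (adjusted p = 0.00289), with rises of 0.92 and 0.76 in KMS-11. LY9, an immune receptor of the same family as CD48, rose by 0.90 in KMS-11 (difference −0.81 ± 0.15, adjusted p = 0.00548), SEMA6A, a semaphorin, by 1.14 (−1.22 ± 0.23, adjusted p = 0.00715), and the coactivator CALCOCO1 by 0.85 (−0.65 ± 0.10, adjusted p = 0.00271).

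MYOF, myoferlin, a membrane repair protein, gave 5.09 and 5.06 in RPMI8226-HR, against 4.82 and 5.00 in parental RPMI8226, and 4.98 and 4.94 in KMS-11-HR, against 6.59 and 6.61 in parental KMS-11. It was above the filter in parental KMS-11 only, was at least 1.26-fold lower in KMS-11-HR, and had a fitted difference of 1.81 ± 0.11 (adjusted p = 8.7e-06). SLC7A2, a carrier of arginine and lysine, gave 4.95 and 5.15 in RPMI8226-HR, against 4.99 and 4.82 in parental RPMI8226, and 6.44 and 6.45 in KMS-11-HR, against 7.73 and 7.68 in parental KMS-11. The SLC7A2 difference was 1.41 ± 0.13 (adjusted p = 9.01e-05). DSEL (1.27 ± 0.10, adjusted p = 5.56e-05), SHISA3 (1.07 ± 0.15, adjusted p = 0.00129), PLXDC2 (0.97 ± 0.22, adjusted p = 0.0153) and JPH1, a junctophilin (0.78 ± 0.15, adjusted p = 0.0069), also fell in KMS-11 alone. These 6 fallen genes were below the filter in all RPMI8226 arrays. The PLXDC2 difference lost its call without RPMI8226-HR array 1 (adjusted p = 0.0621) or KMS-11-HR array 1 (adjusted p = 0.058).

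HIF targets mostly rose in both lines, but the size of the rise often differed. Of 35 tested, 27 rose in RPMI8226 and 27 in KMS-11, 22 of them in both, and 0 fell in either. The median HR effect was 0.79 in RPMI8226 and 0.77 in KMS-11, and the median difference −0.02. VEGFA rose by 0.75 and 0.83 (difference −0.08 ± 0.10) and GBE1, a glycogen branching enzyme, by 0.71 and 0.72 (−0.02 ± 0.13). Their differences did not pass, with 95% intervals of −0.30 to 0.14 for VEGFA and −0.32 to 0.28 for GBE1. The difference passed for 45.7% of the list, against 16.1% of all genes tested. It was higher in RPMI8226 for 5 genes and lower for 11. Among the genes with a passing difference, 11 rose in both lines, further in RPMI8226 for 3 and in KMS-11 for 8.

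The 3 HIF targets with the larger rise in RPMI8226 were AK4, a mitochondrial adenylate kinase (2.32 and 1.03), PFKFB4, a regulator of glycolysis (2.32 and 1.36), and BHLHE40, a repressor (1.49 and 1.02). The 8 with the larger rise in KMS-11 were P4HA1, a collagen prolyl hydroxylase (1.16 in RPMI8226 and 2.01 in KMS-11), the mitophagy receptors BNIP3 (1.67 and 2.05) and BNIP3L (0.85 and 1.63), DDIT4, an inhibitor of mTORC1 (1.30 and 1.96), the histone demethylase KDM3A (0.86 and 1.32), PDK1, which inhibits pyruvate dehydrogenase (0.78 and 1.24), PFKFB3 (1.08 and 1.54) and PPFIA4 (0.33 and 0.75). Leaving out 1 of the KMS-11 arrays, or for BHLHE40, BNIP3, DDIT4, KDM3A and PPFIA4 also 1 of the RPMI8226 arrays, ended the call of the difference for these 5 genes, PDK1 and PFKFB3, with adjusted p of at most 0.147. The calls of AK4, PFKFB4, P4HA1 and BNIP3L held in all 8 such fits. EGLN3 and RORA, a nuclear receptor (1.40 and 0.13), rose in RPMI8226 alone. PLOD2, MXI1 and P4HA2, another collagen prolyl hydroxylase (−0.05 and 0.61), rose in KMS-11 alone. P4HA2 was measurable in both, at 6.94 and 6.95 in RPMI8226-HR, against 6.98 and 7.02 in parental RPMI8226, and 7.59 and 7.62 in KMS-11-HR, against 6.99 and 7.0 in parental KMS-11. Among 18 glycolysis genes, 7 rose in RPMI8226 and 10 in KMS-11, 7 in both. The difference passed for 16.7% of that list, near the share of all genes tested. The glucose transporters SLC2A1 (1.35 and 0.95) and SLC2A3 (1.82 and 0.74) rose further in RPMI8226. The SLC2A1 difference (0.40 ± 0.09, adjusted p = 0.0185) lost its call without any 1 of the 4 KMS-11 arrays, with adjusted p between 0.0596 and 0.074, and with all 16 arrays in the fit (adjusted p = 0.117).

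**Figure D4:**
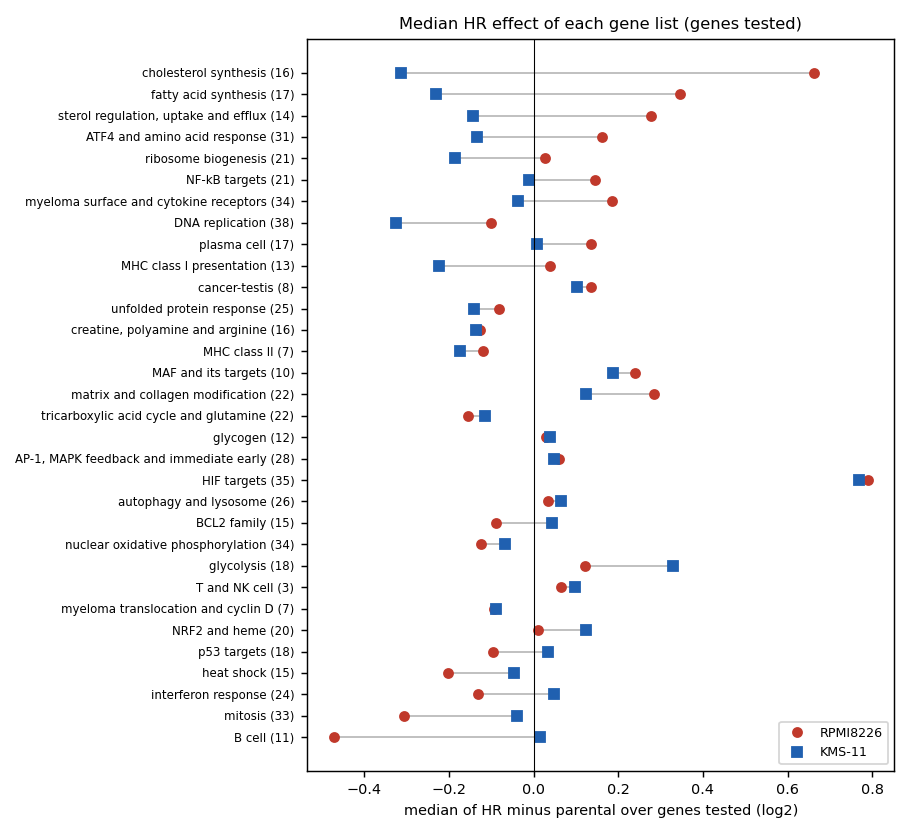
Median HR effect (log2) over the tested genes of each list (number in brackets) in RPMI8226 (circles) and KMS-11 (squares), ordered by the median difference. The HIF list stands at 0.79 and 0.77, the cholesterol list at 0.66 and −0.31 and the B cell list at −0.47 and 0.01.

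The amino acid response, governed by the stress factor ATF4, differed in the enzymes of serine synthesis. Of 31 genes tested, 12 rose and 2 fell in RPMI8226, and 4 rose and 6 fell in KMS-11. The difference was higher in RPMI8226 for 10 and lower for 2 (median 0.28). It passed for 38.7% of the list, against 16.1% of all genes tested. PHGDH, the entry enzyme of serine synthesis, gave 7.79 and 8.22 in RPMI8226-HR, against 6.58 and 6.57 in parental RPMI8226, and 8.37 and 8.25 in KMS-11-HR, against 8.71 and 8.68 in parental KMS-11. PHGDH rose by 1.43 ± 0.12 in RPMI8226, and its effect of −0.38 in KMS-11 missed the threshold (adjusted p = 0.094; difference 1.81 ± 0.17, adjusted p = 0.000125). PSAT1 had effects of 0.91 and −0.32 and the tRNA synthetase AARS1 of 0.37 and −0.17. PSPH (0.17 and −0.46) and the leucine carrier SLC7A5 (0.01 and −0.49) fell in KMS-11 alone, and the PSPH difference lost its call without KMS-11-HR array 1 (adjusted p = 0.0512).

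Cell cycle genes fell more often than they rose, with more DNA replication genes falling in KMS-11 and more mitosis genes in RPMI8226. Of 38 DNA replication genes, 1 rose and 9 fell in RPMI8226 and 0 rose and 21 fell in KMS-11, while of 33 mitosis genes 16 fell in RPMI8226 and 1 fell in KMS-11. The difference was higher in RPMI8226 for 5 replication genes and lower for 1, and lower for 7 mitosis genes. The difference passed for 15.8% of the replication genes, near the 16.1% of all genes tested in either direction. The mitosis differences were all lower, for 21.2% of that list, against 8.23% of all genes tested. Within the lines, 14.5% of all genes tested fell in RPMI8226 and 4.73% in KMS-11. In both lines, 8 replication genes fell. UBE2C, which helps degrade cyclins, gave 6.41 and 6.39 in RPMI8226-HR, against 7.41 and 7.27 in parental RPMI8226, and 8.30 and 8.25 in KMS-11-HR, against 8.41 and 8.37 in parental KMS-11. UBE2C (difference −0.82 ± 0.10, adjusted p = 0.000818) and the kinase AURKA (−0.77 ± 0.14, adjusted p = 0.00545) fell in RPMI8226 alone, and both lie on chromosome 20. TYMS, thymidylate synthase, had effects of 0.62 and −0.25, and the replication factor MCM10 of 0.05 and −0.43. The MCM10 difference lost its call without KMS-11 parental array 2 (adjusted p = 0.058) or KMS-11-HR array 2 (adjusted p = 0.0528). Shares of cells in each phase were not measured.

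Of 24 interferon genes, 3 rose and 8 fell in RPMI8226, and 0 rose and 1 fell in KMS-11. MX1, an antiviral GTPase, fell by 1.22 ± 0.09 in RPMI8226 (0.04 in KMS-11), and PARP14 (−0.89 and −0.03) and DTX3L (−0.80 and 0.09) fell with it, whereas SAMD9L rose (1.41 and −0.01). Of 15 BCL2 family genes, 1 rose and 5 fell in RPMI8226, and 2 rose and 1 fell in KMS-11. BCL2L1, which encodes the survival protein BCL-XL, fell in RPMI8226 (−0.70 and 0.18) and the death-promoting BCL2L11 (−0.19 and 0.42) and BMF (0.07 and 0.59) rose in KMS-11. BID, also death-promoting, fell in RPMI8226 alone (−0.40 and −0.02). The BID difference lost its call with no filter (adjusted p = 0.0547, limma) and in 6 of the 8 fits without 1 array. The lysosomal protease CTSB had effects of −1.62 and 0.43 (difference −2.06 ± 0.19, adjusted p = 9.69e-05), where the KMS-11 value missed the threshold (adjusted p = 0.0844). LGMN, another lysosomal protease, rose in both, 1.38-fold in RPMI8226 and 4.08-fold in KMS-11. Of 34 nuclear genes of oxidative phosphorylation, 8 fell in RPMI8226 and 0 passed in KMS-11 by limma (6 at an unadjusted p under 0.05). For 3 of them the difference passed, all lower in RPMI8226. Over all genes tested, 24.4% passed in RPMI8226 and 6.9% in KMS-11. The difference passed for 41.7% of the interferon list, 26.7% of the BCL2 family and 8.82% of the oxidative phosphorylation list, against 16.1% of all genes tested.

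The genes behind the difference were unevenly spread over the chromosomes. On chromosome 13 the difference was lower in RPMI8226 for 65 of 200 genes (32.5%), on chromosome 20 for 76 of 344 (22.1%) and on chromosome 8 for 86 of 418 (20.6%), beside 8.23% of all genes. On those chromosomes 123, 146 and 150 genes fell and 4, 7 and 17 rose in RPMI8226. Chromosomes 8, 13 and 20 together held 188 of the 707 falls in RPMI8226 alone (26.6%), 12 of its 524 rises (2.29%) and 8.08% of the genes tested. They also held 11 of the 42 genes that were lower in RPMI8226-HR and higher in KMS-11-HR (26.2%), among them ALOX5AP and ZMYND8, and 4 of the 80 reverse ones (5%). Other named genes on these chromosomes included AURKA, UBE2C, CYP24A1, BCL2L1 and CTSB, which were lower in RPMI8226-HR, and SQLE and ACSS2, which rose there. Chromosome 3 was rich in both directions, with 113 of 633 genes higher (17.9%) and 106 lower (16.7%). It held 5.32% of the genes tested, 81 of the 707 falls (11.5%) and 78 of the 524 rises (14.9%) in RPMI8226 alone. It also held 11 of the 80 genes higher in RPMI8226-HR and lower in KMS-11-HR (13.8%) and 6 of the 42 reverse ones (14.3%). The part of chromosome position in the effects of these genes was not tested.

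**Figure D5:**
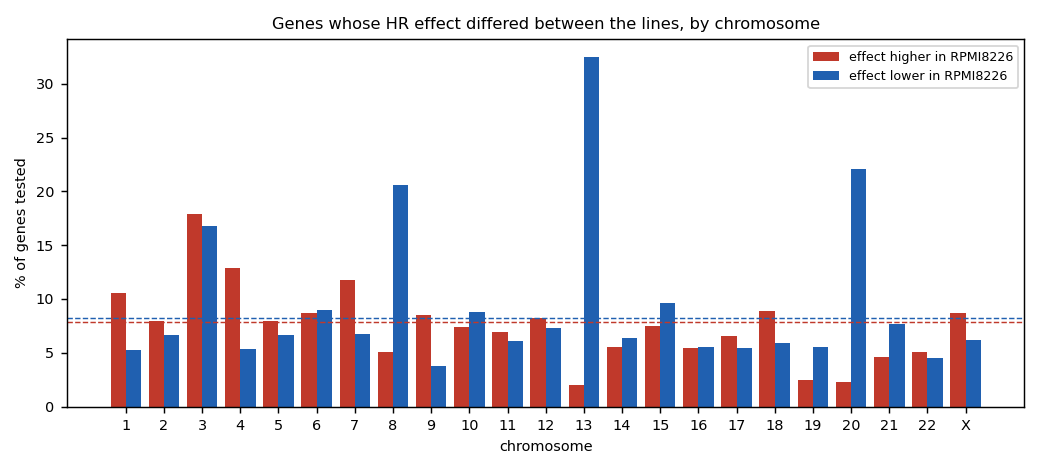
Percent of the genes tested on each chromosome whose HR effect was higher (left bars) or lower (right bars) in RPMI8226 than in KMS-11; dashed lines mark the percentages over all genes, 7.9 and 8.23. Chromosome 13 stands at 32.5% lower, chromosome 20 at 22.1% and chromosome 8 at 20.6%.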

How the data were processed

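Per the labels, total RNA of 4 cell lines was labelled and hybridised to Affymetrix gene arrays. The deposited table holds the authors' log2 values of 33297 probe sets; the submitters' processing notes name Affymetrix Expression Console 1.3.0, and background correction and normalization are not given in the sources used here. The Human Gene 2.0 ST array is the one named for the series, but the probe sets matched the table of the 1.0 ST array, which supplied gene names: 19460 probe sets had 1 symbol, 1754 several and 12083 none, and only the first were used. Of these, 19429 matched RefSeq (GRCh38.p14) by Entrez identifier. Where several probe sets had 1 symbol (769 genes), the one with the highest mean was kept.

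The 8 arrays were fitted as 4 groups in R 4.3.3 with limma 3.58.1 (lmFit, eBayes, 2-sided), with Benjamini-Hochberg adjustment over 11907 genes and a threshold of 0.05. Errors are standard errors. The fit was also run on simulated data with independent normal noise of the same spread in both lines. That run cannot show how unequal spread between the lines or technical replicates affect the calls. The named genes are, for each opposite direction, the 8 with the largest smaller effect; for changes in 1 line alone, the 6 largest rises and 6 largest falls of each line among genes with no overlap between HR and parental arrays; and up to 4 members per list by p-value, with members needed to show which way a list went or to account for its calls. The 34 gene lists and the comparison were chosen with earlier results of these data known. Array numbers 1 and 2 were shared by groups, but their deviations correlated at 0.213 in RPMI8226 and 0.0805 in KMS-11, so they were not taken as pairs.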

Additional observations from a re-analysis of the deposited data

Results flagged for a closer look

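The HR effect differed between RPMI8226 and KMS-11 for 1921 of 11907 genes by the test of the difference itself, and the named genes below were marked by that test. Values are the RPMI8226 effect minus the KMS-11 effect on the log2 scale. Where a group lay below the filter, the value rests on dim arrays. PAGE1, SNORD113-4, CYP24A1 and MYOF passed the filter only through the group where they were high, so they had to differ. In the line that changed, their changes were at least 13.4-fold, 2.1-fold, 1.98-fold and 1.26-fold. CRLF2 passed the filter only through parental RPMI8226 and KMS-11-HR, the group of each line where it was high, so it too had to differ. Among genes that were higher in RPMI8226-HR and lower in KMS-11-HR, the differences were 1.76 for DPY19L2P1, 1.86 for PRKCB, 1.89 for SERPINE2, 2.40 for CNTN1, 1.66 for ACSS2, 1.28 for SQLE, 2.68 for HMGCS1 and 1.21 for FGF2. Among genes lower in RPMI8226-HR and higher in KMS-11-HR, they were −2.40 for CALCRL, −1.74 for CRLF2, −3.49 for MME, −1.35 for FRMD4B, −1.38 for ZMYND8, −1.26 for PPM1H, −2.47 for ALOX5AP and −1.57 for SATB1.

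For rises in RPMI8226 alone, the differences were 4.80 for PAGE1, 3.51 for EGLN3, 3.15 for CAPN6, 3.41 for IGFBP2, 3.07 for IL2RG and 3.10 for CD48, and for falls in RPMI8226 alone −3.97 for SNORD113-4, −2.95 for CYP24A1, −2.58 for KDELR3, −2.45 for SEPTIN10, −2.27 for CRIP2 and −2.16 for PCTP. For rises in KMS-11 alone they were −1.41 for ENO2, −1.22 for SEMA6A, −0.82 for PLOD2, −0.88 for MSC, −0.81 for LY9 and −0.65 for CALCOCO1, and for falls in KMS-11 alone 1.81 for MYOF, 1.41 for SLC7A2, 1.27 for DSEL, 1.07 for SHISA3, 0.97 for PLXDC2 and 0.78 for JPH1.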

How the results depend on the processing

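With 2 arrays per group, the counts that rest on KMS-11 calls depended most on the settings. Of 2961 repeats of the named differences, 2750 kept their direction and side of the threshold, 207 lost the call (in 42 genes) and 0 turned round. The largest shift of the median difference over all genes was −0.02, with quantile normalization applied again, which put 43.5% of the passing differences higher in RPMI8226, against 49% in the fit reported above. Genes lower in KMS-11-HR numbered 360 with that normalization, 318 with no filter, 1233 with array weights and 864 with the spread estimated per line, an alternative chosen after seeing the data. With array weights RPMI8226-HR had 853 genes higher and 1266 lower. Genes higher in KMS-11-HR numbered 608 with array weights and 430 with the spread per line. Opposite genes numbered 42 and 26 by direction with no filter, and 77 lower in RPMI8226-HR with array weights. Falls in KMS-11 alone numbered 104 with no filter, and rises in KMS-11 alone 105 with array weights.

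With quantile normalization the median difference was 0.19 for DNA replication, −0.62 for B cell genes and 0.19 for surface receptors. With no filter it was 0.24 for sterol regulation, 0.49 for fatty acid synthesis, −0.0689 for B cell genes and 0.18 for surface receptors. It was −0.76 for B cell genes with a stricter filter and 0.19 for DNA replication with the mean over probe sets. The cause of these shifts was not tested. With the replicate block, 124 opposite genes were found, 98 of them among the 122, and 2029 differences passed, 1742 of them among the 1921; RND3, ACSL1, BHLHE40, BLK and TNFRSF17 lost their call and 0 other named differences did.

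Without 1 array, differences higher in RPMI8226 numbered 570 to 893 and lower 579 to 940, with the fewest of both without KMS-11-HR array 2. Opposite genes numbered 11 to 78 (higher in RPMI8226-HR) and 11 to 56 (lower in RPMI8226-HR), changes in RPMI8226 alone 274 to 477 rises and 379 to 686 falls, and in KMS-11 alone 18 to 62 rises and 37 to 152 falls. KMS-11-HR had 85 to 292 genes higher and 84 to 598 lower. Median differences ranged over 0.88 to 1.14 for cholesterol synthesis, 0.45 to 0.61 for fatty acid synthesis, 0.29 to 0.37 for sterol regulation, −0.087 to −0.0285 for HIF targets, 0.15 to 0.29 for DNA replication, −0.38 to −0.12 for mitosis, −0.63 to −0.35 for B cell genes and 0.19 to 0.28 for surface receptors.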

Other observations

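Other gene lists are given by their counts at an adjusted p under 0.05 (limma), with the log2 HR effect of a named gene in RPMI8226 first and in KMS-11 second. Over all genes tested, 9.9% rose and 14.5% fell in RPMI8226, and 2.17% rose and 4.73% fell in KMS-11. More calls in RPMI8226 than in KMS-11 are thus not particular to a list. Of 17 plasma cell genes, 4 rose and 1 fell in RPMI8226 and 1 rose and 1 fell in KMS-11, with ELL2, which promotes antibody secretion, at 0.92 and 0.01. Of 21 NF-kB targets, 8 rose and 3 fell in RPMI8226 and 1 rose in KMS-11, and TNFAIP3, a feedback inhibitor, rose in both (1.01 and 0.29). Of 28 MAP kinase and immediate early genes, 4 rose and 4 fell in RPMI8226 and 2 rose and 3 fell in KMS-11, and ERRFI1, a receptor feedback inhibitor, fell by 2.50 and 0.31. Of 22 genes of the tricarboxylic acid cycle and glutamine use, 3 rose and 6 fell in RPMI8226 and 0 passed in KMS-11 (8 at an unadjusted p under 0.05), with IDH1 at 0.77 and −0.17 and SUCLA2 at −0.64 and −0.11. Of 15 heat shock genes, 5 fell in RPMI8226 and 0 passed in KMS-11 (1 unadjusted), with HSPA4L at −0.84 and 0.17. Of 25 unfolded protein response genes, 1 rose and 7 fell in RPMI8226 and 3 fell in KMS-11, with EDEM1 at 0.70 and −0.09. Of 18 p53 targets, 7 fell in RPMI8226, and 1 rose and 3 fell in KMS-11, with ZMAT3 at −0.66 and 0.13.

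Of 26 autophagy and lysosome genes, 4 rose and 6 fell in RPMI8226 and 4 rose in KMS-11. Of 20 NRF2 and heme genes, 3 rose and 3 fell in RPMI8226 and 3 rose in KMS-11, with HMOX1, heme oxygenase, at 1.57 and 0.78. Of 22 matrix and collagen modification genes, 10 rose and 2 fell in RPMI8226 and 7 rose and 2 fell in KMS-11, with vimentin, VIM, at 1.98 and 0.02. Of 16 creatine, polyamine and arginine genes, 1 rose and 4 fell in RPMI8226 and 3 fell in KMS-11, with the creatine kinase CKB at −1.37 and −0.12. Of 12 glycogen genes, 5 rose and 1 fell in RPMI8226 and 3 rose and 1 fell in KMS-11. Of 7 tested genes of MHC class II, 3 fell in RPMI8226 and 2 in KMS-11, and of 13 of class I presentation, 1 rose in RPMI8226 and 2 fell in KMS-11, with ERAP1, a peptide trimmer, at 0.73 and −0.18. Of 10 MAF-related genes, 3 rose in RPMI8226 and 2 in KMS-11, and the chemokine receptor CCR1 rose in both (0.42 and 0.92). CCR1's difference lost its call without KMS-11-HR array 2 (adjusted p = 0.0538, limma). Of 21 ribosome biogenesis genes, 1 fell in RPMI8226 and 4 in KMS-11. Of 7 myeloma translocation and cyclin D genes, 1 fell in RPMI8226 and 0 passed in KMS-11 (1 unadjusted). Of 8 cancer-testis genes, 1 rose in RPMI8226 and 1 fell in KMS-11. Of the 3 T and NK cell, 2 myeloid and 2 stromal genes tested, 0 passed in either line, and 1 T and NK cell gene had an unadjusted p under 0.05 in KMS-11.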
